A study of Mus musculus with 2 samples.

Results

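Genes for the precursors of neuropeptides and peptide hormones were examined in RNA from the adrenal gland of 2 adult male mice aged 8 to 10 months. Both were B6CASTF1/J mice, a cross between the C57BL/6J and CAST/EiJ strains, and no treatment, added allele or other group is named in the labels. Replicate 1 came from animal 2 and replicate 2 from animal 4, and each total RNA library was made from 300 ng of RNA. The labels name separate animals and samples but give both the same donor entry, so the SD and the ratios below measure the spread between separate animals only if the animal numbers hold. The precursors are a fixed list of 41 gene symbols, all of which were matched to an identifier in the GENCODE M21 annotation of the mm10 assembly, out of 55536 annotated genes in the tables. Levels are TPM, a transcript abundance unit, as deposited by the authors. It corrects for transcript length, so levels of different genes can be set beside each other.

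Peptide hormones and neuropeptides are made as longer precursor proteins. In the secretory pathway the precursor is cut at pairs of the basic residues lysine and arginine, the basic residues are trimmed off, and many peptides are then given a carboxy-terminal amide in place of a glycine. In the adrenal gland, chromaffin cells of the medulla store such peptides with catecholamines in the same granules. The cortex, in turn, carries receptors for peptides that reach it by the blood or from neighbouring cells, such as ACTH and angiotensin II.

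Of the 41 precursors, 8 were detected, meaning that they stood at 1 TPM or more in both animals, which is 19.5% of the list. By the same rule 56.3% of the 22015 nuclear protein-coding genes were detected. In order of level the detected precursors were Npy, Gal, Adm, Penk, Edn3, Apln, Cartpt and Nmb. Another 19 precursors had counts in at least 1 animal without reaching that level in both, and 14 had a count of 0 in both. The detected precursors held 98.5% of the summed precursor TPM in replicate 1 and 98.9% in replicate 2. Detection was set by the same TPM, so a high share follows in part from the rule.

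The coding stretches that the levels below turn on are shown here, read from the GENCODE M21 transcripts in mm10 coordinates. Npy and Pyy are shown because they encode sister peptides and lie at opposite ends of the measured range, and Gal because it was the runner-up in level. Capitals in these sequences mark the glycine, lysine and arginine codons at which the peptide is amidated and cut. The Npy stretch lies in exons 2 to 3 of Npy-201 between the outer positions chr6:49823682-49827501 on the plus strand, the Pyy stretch in exons 1 to 2 of Pyy-202 at chr11:102107044-102107268 on the minus strand, and the Gal stretch in exons 3 to 4 of Gal-202 at chr19:3411592-3413334 on the minus strand.
Npy: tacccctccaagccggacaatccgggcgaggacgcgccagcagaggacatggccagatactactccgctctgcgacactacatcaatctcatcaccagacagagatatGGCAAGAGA
Pyy: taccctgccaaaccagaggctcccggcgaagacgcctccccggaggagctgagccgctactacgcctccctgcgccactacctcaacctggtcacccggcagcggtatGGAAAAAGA
Gal: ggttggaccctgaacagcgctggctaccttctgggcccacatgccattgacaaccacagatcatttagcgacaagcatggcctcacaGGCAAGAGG

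Over the 36 codons of the mature peptides, Npy and Pyy share 76 of 108 bases and 24 of 36 residues. Penk is shown at its closest pair of enkephalin units, in exon 2 of Penk-201 at chr4:4134307-4134354 on the minus strand, with the codons of each Met-enkephalin in capitals and the codon pairs for basic residues around them in lower case.
Penk: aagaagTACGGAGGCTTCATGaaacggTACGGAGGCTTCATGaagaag

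The endothelins are shown because 1 of the 3 genes was detected. Each stretch of 63 bases encodes the 21 residues of the mature peptide, with the 4 cysteine codons in capitals, and lies in exon 2. The positions are chr2:174761749-174761811 for Edn3, chr13:42303649-42303711 for Edn1 and chr4:120161951-120162013 for Edn2, all on the plus strand.
Edn3: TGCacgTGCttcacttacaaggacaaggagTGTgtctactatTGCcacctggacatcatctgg
Edn1: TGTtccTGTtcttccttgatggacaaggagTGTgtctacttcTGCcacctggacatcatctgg
Edn2: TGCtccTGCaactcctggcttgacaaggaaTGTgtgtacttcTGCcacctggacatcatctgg

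Edn3 shares 50 of the 63 bases with Edn1 and 48 with Edn2, while Edn1 and Edn2 share 53. At the level of residues Edn3 is identical to either of the others at 15 of 21 positions, and Edn1 and Edn2 at 18.

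The libraries summed to 29994901 and 33987434 expected counts on annotated genes. Expected counts are read counts that the quantifier assigned to each gene, and those of all 41 precursors were whole numbers in both animals. Markers of the labelled tissue were present: 16 of 16 chromaffin genes and 12 of 12 cortex genes were detected. Chromaffin markers summed to 4113 TPM in replicate 1 and 3082 TPM in replicate 2. The animals differed in markers of fat: 11 adipocyte markers summed to 294 TPM in replicate 1 and 2356 TPM in replicate 2, and each of the 11 stood 2-fold or more higher in the latter. Kidney markers summed to 0.49 and 2.00 TPM, with Umod, Slc12a1 and Nphs1 at 0 in both. In whole-gland RNA, fewer cells of a type and less RNA per cell cannot be told apart.

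**Figure D1:**
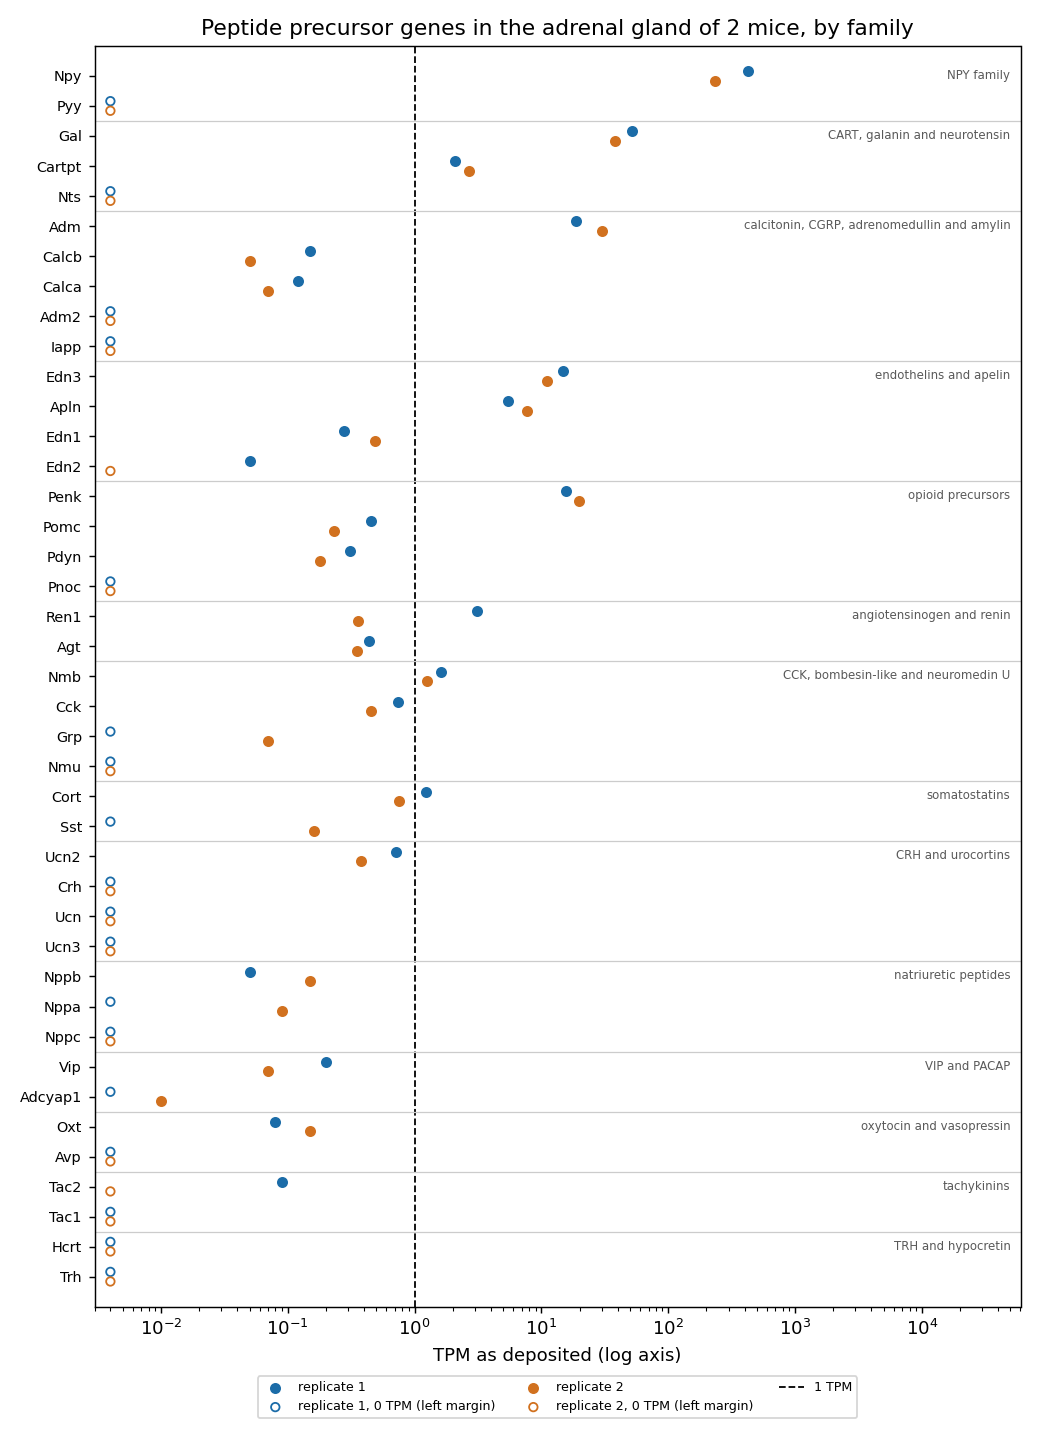
Deposited TPM (log axis) of the 41 precursor genes in replicate 1 (blue) and replicate 2 (orange), grouped by peptide family, with open circles at the left margin for 0 TPM and a dashed line at 1 TPM. Npy sits at the far right at 430 and 234 TPM, 8 genes lie right of the line in both animals, and 14 genes have open circles in both.

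Npy encodes neuropeptide Y, a peptide that chromaffin cells and sympathetic neurons release together with catecholamines. It was the leading precursor in both animals, at 430 TPM in replicate 1 and 234 TPM in replicate 2, or 332 ± 138 TPM (SD, n = 2). By its mean it stood at rank 112 among nuclear protein-coding genes. It made up 78.4% of the summed precursor TPM in replicate 1 and 67.1% in replicate 2. The gene (ENSMUSG00000029819.6) lies at chr6:49822710-49829507 on the plus strand and has 1 annotated transcript.

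Pyy, which encodes the gut hormone peptide YY, had a count of 0 in both animals. A count of 0 allows up to 3 counts, which for Pyy is 0.266 TPM in replicate 1 and 0.247 TPM in replicate 2. Such limits, like the intervals below, cover counting error only, since several reads can come from the same molecule when no molecular identifiers are used. Of the NPY family, then, Npy was abundant and Pyy was not detectable at this depth.

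Levels of Npy can be read against the chromaffin markers on the TPM scale. Th, the rate-limiting enzyme of catecholamine synthesis, stood at 514 and 256 TPM, so that Npy was at 0.836 times its level in replicate 1 and 0.916 times in replicate 2. Against Chga, the granule protein chromogranin A, the ratio was 0.357 and 0.233. Pnmt, which converts noradrenaline to adrenaline, stood at 363 TPM in replicate 1 and 78.0 TPM in replicate 2, and the ratio of Npy to it was 1.18 and 3.003. For the chromaffin markers Dbh, Scg2 and Chgb the ratios were 1.76 and 1.20, 0.599 and 0.406, and 0.555 and 0.349. Npy therefore lay within 1 order of magnitude of all these markers in both glands. Its ratio to Th was the closest to equal between the animals among them. Th and Pnmt were the only 2 of the 16 chromaffin markers that stood 2-fold or more lower in replicate 2, so the choice of marker sets this reading.

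Gal encodes galanin, a neuropeptide of many neuroendocrine cells. It stood at 51.8 TPM in replicate 1 and 37.9 TPM in replicate 2 (44.9 ± 9.83 TPM, SD, n = 2), at rank 1698. Npy exceeded it 8.30-fold in replicate 1 and 6.18-fold in replicate 2 on the TPM scale. The gene lies at chr19:3409915-3414544 on the minus strand, and Gal-202, the transcript shown above, took 94.4% of the gene's TPM in replicate 1 and 97.2% in replicate 2.

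Cartpt, whose products are the CART peptides, stood far lower at 2.09 and 2.69 TPM (2.39 ± 0.424 TPM, SD, n = 2), from 54 and 69 counts. Its 2 annotated transcripts took unequal parts in the animals: Cartpt-201 held 52.4% in replicate 1 and 69.2% in replicate 2. Estimates from kallisto, the other quantifier in the deposit, were 15.6% and 62.1%, so the quantifiers split these few counts differently. Nts, the neurotensin precursor, had a count of 0 in both animals.

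Of the 4 opioid precursors only Penk was detected. Penk encodes proenkephalin, whose enkephalins are stored in chromaffin granules. It stood at 15.7 TPM in replicate 1 and 19.7 TPM in replicate 2 (17.7 ± 2.81 TPM, SD, n = 2), and Npy exceeded it 27.3-fold and 11.9-fold. The coding sequence of Penk-201 holds 7 enkephalin units preceded by a pair of basic residues, 6 for Met-enkephalin and 1 for Leu-enkephalin. The gene lies at chr4:4133531-4138819 on the minus strand. Its antisense neighbour A830012C17Rik had 1 count in each animal. Penk-201 took 83.8% and 87.8% of the gene's TPM, and 93.4% and 93.7% by kallisto.

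The other opioid genes were near or at the floor. Pomc, the precursor of ACTH and beta-endorphin, stood at 0.45 and 0.23 TPM from 11 and 6 counts. Pdyn, the precursor of dynorphins, stood at 0.31 and 0.18 TPM from 20 and 12 counts. Its coding sequence holds 3 Leu-enkephalin units after a pair of basic residues, and that of Pomc holds 1 Met-enkephalin unit. Pnoc, the precursor of nociceptin, had an expected count of 0 in both animals, although kallisto assigned it 4 counts in replicate 1 and 1 in replicate 2.

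Adm encodes adrenomedullin, a vasodilator named for its isolation from a tumour of the adrenal medulla and made by many cell types. It stood at 18.7 TPM in replicate 1 and 30.3 TPM in replicate 2 (24.5 ± 8.14 TPM, SD, n = 2). The gene lies at chr7:110627661-110629820 on the plus strand, opposite Gm28863, which had 2 and 3 counts. Adm-201 took 87.0% and 87.4% of its TPM, and Adm-202, annotated as a transcript that retains an intron, 13.0% and 12.6%. Adm was the only one of its family to be detected. Calca, from which calcitonin or the neuropeptide CGRP is made by splicing, had 1 and 2 counts, too few to tell its splice forms apart. Calcb, the other CGRP gene, had 3 and 1 counts, and Adm2 and Iapp, the latter encoding amylin, had 0 in both.

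Endothelins are peptides best known as vasoconstrictors, and apelin is a vasodilator peptide. Edn3 stood at 14.8 TPM in replicate 1 and 11.1 TPM in replicate 2 (12.9 ± 2.60 TPM, SD, n = 2). Edn1, the gene of the main endothelin of vessel walls, stood at 0.28 and 0.49 TPM, so that Edn3 exceeded it 52.8-fold in replicate 1 and 22.7-fold in replicate 2. Edn2 had 2 counts in replicate 1 and 0 in replicate 2. The order Edn3, Edn1, Edn2 was thus the same in both glands, with a wide gap after Edn3.

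Edn3 spans chr2:174760619-174784042 on the plus strand. Edn3-201 took 76.3% of the gene's TPM in replicate 1 and 70.1% in replicate 2, and the intron-retaining Edn3-202 took 22.9% and 21.8%. By kallisto the intron-retaining transcript took 31.5% and 30.9%. The intron-retaining share of Edn3 was larger than that of Adm in both animals by both quantifiers. Apln, the apelin gene on the X chromosome (chrX:48025146-48034853, minus strand), stood at 5.50 and 7.73 TPM (6.61 ± 1.58 TPM, SD, n = 2) with 1 annotated transcript.

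**Figure D2:**
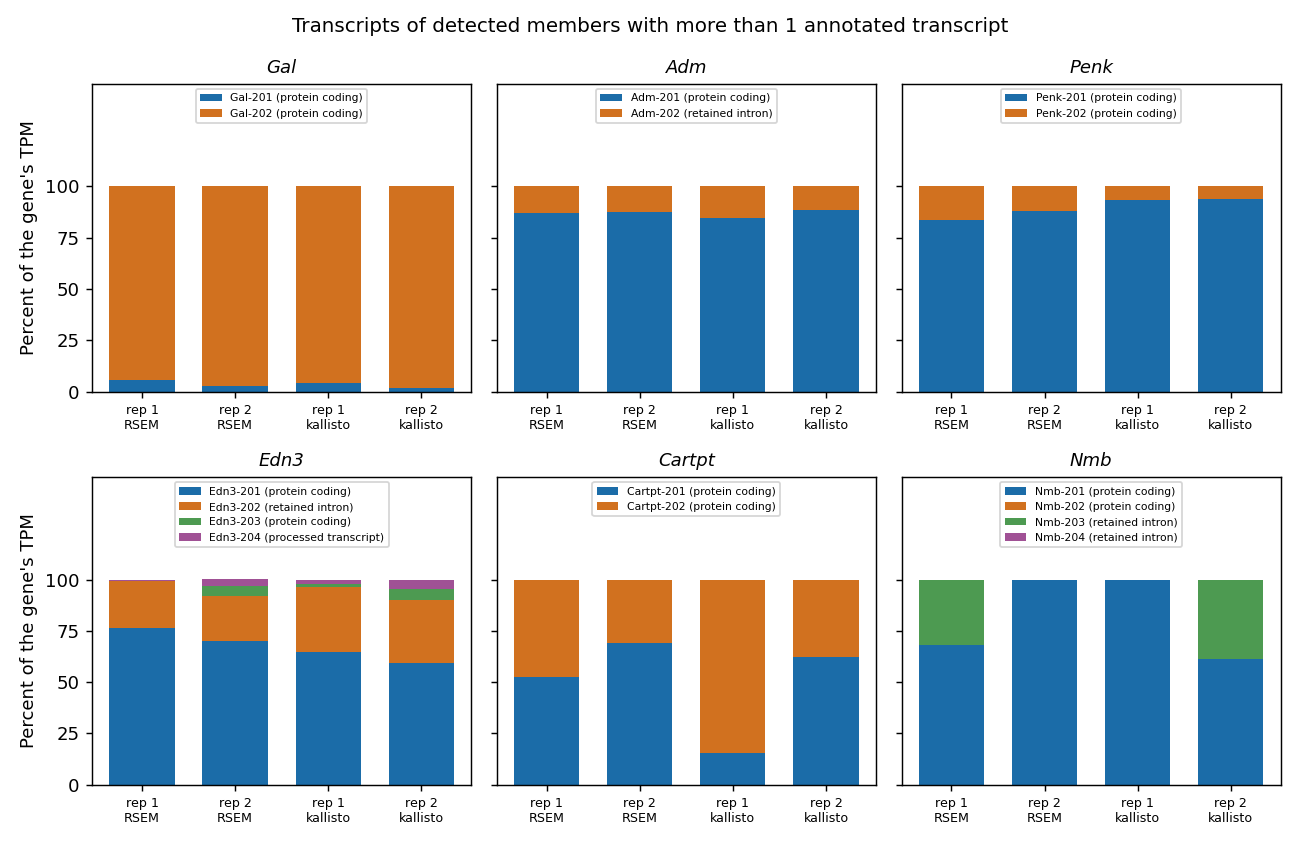
Percent of a gene's TPM taken by each annotated transcript in replicates 1 and 2, by RSEM and by kallisto, for the 6 detected precursors with more than 1 transcript. Gal, Adm, Penk and Edn3 have the same leading transcript in all 4 bars, whereas the leading transcript of Cartpt differs between bars and the intron-retaining Nmb-203 appears in 1 animal only by each quantifier.

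Nmb encodes neuromedin B, a bombesin-like peptide, and was the detected precursor nearest to the limit, at 1.62 and 1.26 TPM from 25 and 23 counts (1.44 ± 0.255 TPM, SD, n = 2). At chr7:80902227-80905076 on the minus strand, it overlaps Sec11a, a gene of the signal peptidase complex, on the same strand, and Sec11a had 807 and 931 counts. By kallisto Nmb stood at 0.911 and 1.20 TPM, below the limit in replicate 1. Among the other genes of this group, Cck (cholecystokinin) had 8 counts in each animal at 0.74 and 0.45 TPM. Grp, for gastrin-releasing peptide, had 0 and 1 counts, and Nmu, for neuromedin U, had 0 in both.

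Cort and Ren1 reached 1 TPM in replicate 1 only. Cort encodes cortistatin, a relative of somatostatin, and stood just outside the limit at 1.24 and 0.75 TPM from 20 and 13 counts. Sst itself, the somatostatin gene, had 0 and 3 counts. Ren1 encodes renin, the protease that cuts angiotensinogen, and stood at 3.13 TPM in replicate 1 and 0.36 TPM in replicate 2. Its substrate gene Agt was at 0.44 and 0.35 TPM.

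Ucn2, for urocortin 2, stood at 0.71 and 0.38 TPM from 21 and 12 counts. The other genes of the corticotropin-releasing hormone family, Crh, Ucn and Ucn3, had counts of 0 in both animals. Vip, for vasoactive intestinal peptide, had 9 and 3 counts, and Adcyap1, for the related PACAP, had 0 and 1. Both are known as transmitters of nerves that reach the gland. Of 11 neuron markers 4 were detected, with a sum of 25.3 and 30.1 TPM, and Slc18a3, the vesicular acetylcholine transporter, had a count of 0 in both.

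Every remaining precursor was at or near 0. Oxt, the oxytocin gene, had 1 and 2 counts and Avp, the vasopressin gene, 0 in both. Of the natriuretic peptide genes, Nppa had 0 and 2 counts, Nppb 1 and 3, and Nppc 0 in both. Of the tachykinin genes, Tac2 had 1 and 0 counts and Tac1 had 0 in both. Trh and Hcrt, of the hypothalamic peptides TRH and hypocretin, had 0 in both. Over the 14 precursors with a count of 0 in both animals, 3 counts corresponded to between 0.0640 and 0.267 TPM in replicate 1 and between 0.0596 and 0.248 TPM in replicate 2. Their messages were not detectable at this depth, and levels below these limits cannot be told from 0.

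The animals were then compared, precursor by precursor, by the ratio of scaled counts with an exact conditional binomial 95% interval. With 1 animal on each side there is no test of a condition, and the intervals hold counting error but not the spread between animals. In the 6 precursors that averaged 100 counts or more, 0 stood 2-fold or more higher in replicate 2, against 2.4% of the 12853 nuclear genes of that depth, and 0 stood 2-fold or more lower, against 1.1%. At an average of 10 counts or more, 14 precursors could be compared. Of these, 0 stood 2-fold or more higher, against 4.81% of 18181 nuclear genes, and 1, Ren1, stood 2-fold or more lower with an interval excluding equality, against 3.8%. At such background shares counts of 0 and 1 are not results about the precursors as a class. The median log2 ratio of the 14 was -0.23, and that of all nuclear genes at that average was 0.01. Over the 8 detected precursors alone the median was -0.03.

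Npy fell closest to the 2-fold limit among the deeper genes. From 5612 and 3286 counts it was 1.99-fold lower in replicate 2, with an interval of 1.90 to 2.07. Edn3, with 1112 and 850 counts, was 1.52-fold lower (1.39 to 1.67), and Gal, with 989 and 781 counts, was 1.47-fold lower (1.34 to 1.62). These 3 intervals lay below equality. The chromaffin markers were lower in replicate 2 as well in 12 of 16 genes, with a median log2 ratio of -0.22, and the cortex markers in 10 of 12, with a median of -0.395. The part of either list in the Npy, Edn3 and Gal values was not tested.

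Adm, Apln and Penk went the other way. Adm, with 608 and 1058 counts, was 1.50-fold higher in replicate 2 (1.35 to 1.66). Apln, with 470 and 709 counts, was 1.30-fold higher (1.15 to 1.46), and Penk, with 543 and 748 counts, was 1.18-fold higher (1.06 to 1.33). All 3 intervals lay above equality, so Npy and Penk, both peptides of chromaffin granules, differed in opposite directions between the animals. Several marker lists were higher in replicate 2 as well, in every gene compared: adipocyte (11 genes, median log2 ratio 3.02), brown adipocyte (6 genes, 3.10), macrophage (10 genes, 0.59), and capsule and fibroblast (10 genes, 0.33). Lymphocyte markers were higher in all 7 genes compared, with a median of 0.26. Other lists went both ways. Endothelium markers were lower in 6 of 10 genes, with a median of -0.05. Smooth muscle and pericyte markers were higher in 5 of 8 and lower in 3, with a median of 0.46. The part of these lists in the Adm, Apln and Penk values was not tested. Without Npy the summed precursor TPM was 118 in replicate 1 and 115 in replicate 2, against 548 and 349 with it.

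The intervals of Cartpt, at 1.10-fold higher (0.758 to 1.60), and of Nmb, at a ratio of 0.791 (0.429 to 1.45), included equality. So did those of Cort, Ucn2, Pdyn, Agt and Edn1, which have between 12 and 30 counts per animal. For these 7 precursors the depth allows no direction.

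Ren1 had 131 counts in replicate 1 and 16 in replicate 2, which is 9.52-fold lower in replicate 2 with an interval of 5.65 to 17.2. The annotation holds it at chr1:133350510-133360325 on the plus strand. Its mean of 73.5 counts lay under the minimum of 100 used above. Of the 10 kidney markers 0 were detected, and they summed to 0.49 and 2.00 TPM. Their part in the Ren1 difference was not tested.

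**Figure D3:**
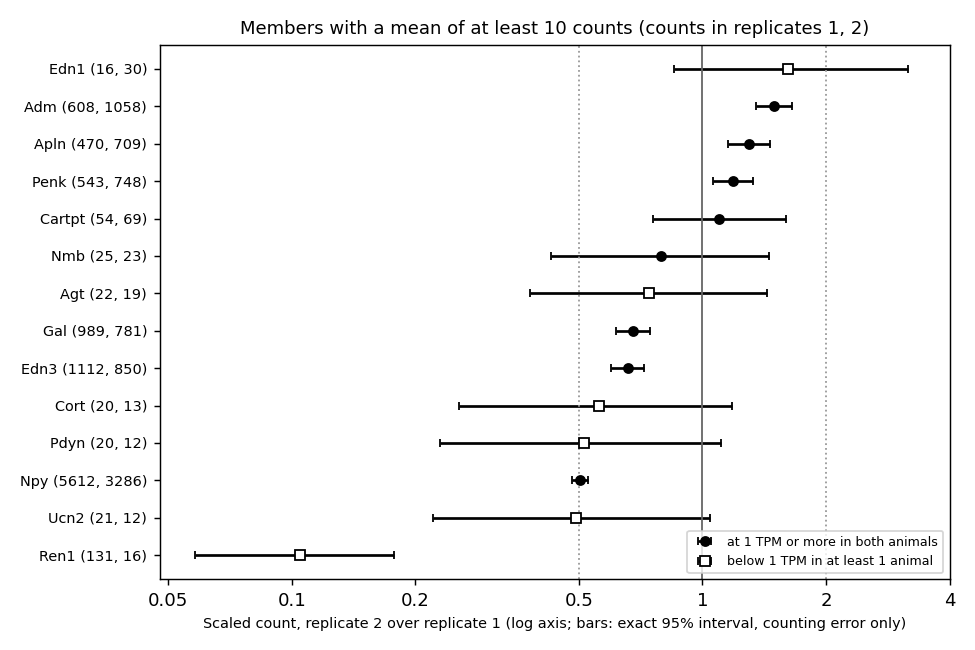
Ratio of scaled counts, replicate 2 over replicate 1 (log axis), for the 14 precursors with a mean of at least 10 counts, with exact 95% intervals for counting error. Filled circles mark precursors detected in both animals, dotted lines mark 2-fold, and the counts of replicates 1 and 2 stand beside each name; Ren1 lies apart at the left, and Npy touches the 2-fold line.

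Precursors were next set beside the receptors of their peptides, with 56 receptor and accessory genes paired to ligands from textbook knowledge after the tables had been seen. Of these, 22 were detected, where the same rule detected 56.3% of nuclear protein-coding genes. In 7 cases both the receptor and a precursor of its ligands were detected, in 15 the receptor alone, in 8 a precursor alone and in 26 neither. The pairing sets these counts: Ednra, for example, was paired with Edn1 and Edn2, its preferred ligands, and would join the 7 if Edn3 were counted.

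Receptors detected together with a precursor were those for NPY, adrenomedullin, endothelin 3 and apelin. For NPY, Npy2r stood at 8.10 and 7.77 TPM and Npy1r at 2.12 and 1.55 TPM, while Npy5r (0.10 and 0.14 TPM) and Npy4r (0.00 and 0.02 TPM) were not detected. For adrenomedullin, the receptor Calcrl stood at 14.8 and 10.2 TPM, and its partners Ramp2 (253 and 391 counts) and Ramp3 (341 and 249 counts) were detected as well. Ednrb, which binds all endothelins, stood at 17.9 and 15.8 TPM, a level close to that of Edn3. Aplnr stood at 2.97 and 6.54 TPM, and its counts were 1.75-fold higher in replicate 2 (1.51 to 2.03), the direction seen for Apln.

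By this pairing Gal, Penk and Nmb had no detected receptor in the gland. Cartpt was paired with no receptor on the list, so it could not be placed in either group. Of the galanin receptors, Galr1 was nearest at 1.15 and 0.69 TPM, and Galr2 and Galr3 had 5 or fewer counts in each animal. Of the opioid receptors that enkephalins bind, Oprd1 stood at 0.59 and 0.52 TPM and Oprm1 at 0.67 and 0.25 TPM. Nmbr had 6 and 3 counts. Grpr, a receptor of bombesin-like peptides, stood at 4.60 and 2.63 TPM but was paired with Grp only. Nmb would have a detected receptor if it were paired with Grpr as well.

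By the same pairing the remaining detected receptors had no detected precursor in the gland. Mc2r, the ACTH receptor of the cortex, stood at 108 and 96.9 TPM while Pomc was under 0.5 TPM. Agtr1a, the main angiotensin II receptor, stood at 181 and 123 TPM and Npr1, the receptor of atrial and brain natriuretic peptides, at 151 and 147 TPM, with Agt, Nppa and Nppb undetected. Adcyap1r1, the PACAP receptor, stood at 28.9 and 23.3 TPM against 0 and 1 counts of Adcyap1. Tacr2 (11.5 and 10.9 TPM) and Oxtr (11.3 and 9.46 TPM) were likewise detected with Tac1 at 0 in both and Oxt at 1 and 2 counts.

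Some of these receptors differed between the animals. Npr3, the natriuretic peptide clearance receptor, was 4.21-fold higher in replicate 2 (8.76 and 36.7 TPM), Agtr2 was 2.07-fold higher (18.2 and 35.2 TPM) and Sstr2 was 2.17-fold lower (4.40 and 2.31 TPM). Of the 22 receptor genes with at least 100 mean counts, 2 stood 2-fold or more higher, against 2.4% of nuclear genes of that depth. Sstr2 alone stood 2-fold or more lower, against 1.1%. Counts of 2 and 1 among 22 genes are too small to read as a result about receptors. The part of the adipocyte markers in the Npr3, Agtr2 and Sstr2 differences was not tested.

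**Figure D4:**
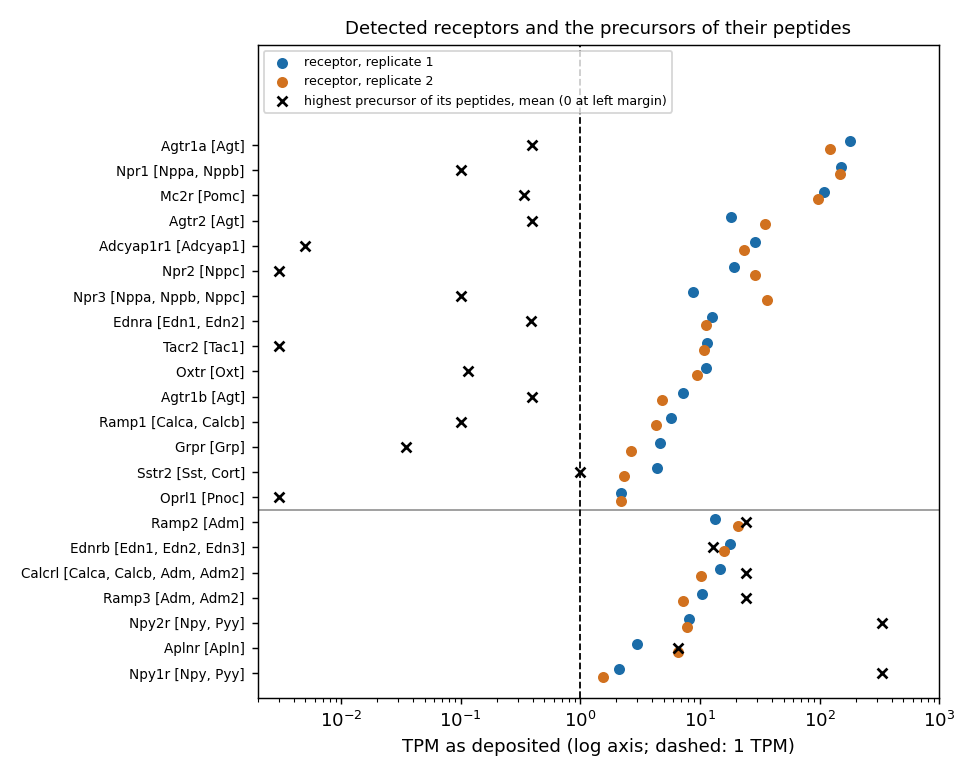
TPM (log axis) of the 22 detected receptor and accessory genes in replicate 1 (blue) and replicate 2 (orange), with their ligand precursors in brackets and a cross for the highest mean among these precursors. Above the line lie the 15 receptors with no precursor at 1 TPM or more in both animals, headed by Agtr1a, and below it the 7 with a detected precursor.

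Of 17 genes for peptide processing and breakdown, which include the convertase partners Scg5 and Pcsk1n besides enzymes, 16 were detected. The share over nuclear protein-coding genes was 56.3%. Cpe, the carboxypeptidase that trims basic residues, stood at 420 and 422 TPM, close to the level of Npy in replicate 1. Pam, which makes the carboxy-terminal amide from glycine, stood at 171 and 201 TPM. The prohormone convertases of secretory granules were lower, with Pcsk1 at 17.2 and 13.6 TPM and Pcsk2 at 3.30 and 2.22 TPM. Ece1, which releases mature endothelin, stood at 106 and 115 TPM, and Ctsl, a protease that also acts on proenkephalin, at 73.7 and 108 TPM. Mme, or neprilysin, which degrades several peptides, was the gene not detected in both, at 0.48 and 7.72 TPM.

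The precursors were then searched for residues of the kind that these enzymes act on. A glycine followed by 2 basic residues occurred in the coding sequence of 27 of the 41, or 65.9%, against 24.3% of 13164 nuclear protein-coding genes whose protein is no longer than the longest precursor of 482 residues. The match was found in 6 of the 8 detected precursors (not in Penk or Cartpt) and in 21 of the 33 others, so it was found in detected and undetected precursors. It was counted anywhere in the coding sequence, whether or not a mature peptide ends there. A match is thus a description of residues and not a measured amidation site. The precursors were short, with a median of 146 residues against 297 in that background.

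Promoter sequence was available for 35 of the precursors, 7 of them detected, as RefSeq windows on the GRCm38.p6 build. The letters TGACGTCA of the cAMP response element, which read the same on both strands, occurred within 250 bases before the RefSeq start of 3 precursors: Cartpt, Sst and Ucn. That is 8.57% of the genes, against 1.55% of all 32851 windows. A gene was counted if any of its windows matched, while the background counts each window singly. The TATA letters TATAAA were searched on the gene's strand, 40 to 16 bases before the start. They occurred in 7 precursors, Agt, Hcrt, Nppb, Nppc, Pomc, Ren1 and Vip, or 20%, against 1.99% of all windows. No gene held both, and 0 of the 7 detected precursors held the TATA letters. At that background share 0 of 7 is not a result about the detected precursors. A match is a description of these letters and not a measured site.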

How the data were processed

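Total RNA libraries of 2 animals, made with a directional (strand-keeping) kit per the labels, were compared as 1 group. Gene tables in the deposit give expected (estimated, not normalized) counts and TPM computed by the authors over all entries, under the column names RSEM writes, per the file headers. Deposited transcript tables give TPM and the percent of a gene's TPM per transcript, and a further set holds kallisto estimated counts. The posterior standard deviation of each count is a deposited signal column. Text accompanying the deposit gives mm10 and GENCODE M21; tool versions: not given in the sources used here. Reads of CAST alleles were thus quantified on the mm10 reference.

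Folds are ratios of rounded expected counts scaled by TMM (edgeR 4.0.16, R 4.3.3), with exact conditional binomial 95% intervals (scipy 1.17.1). Log2 ratios are of CPM + 1, which understates differences of low genes. DESeq2 1.42.0 gave size factors only. The smallest two-sided p of an exact paired permutation over 2 animals is 0.5, so no p-value was computed. The 2 libraries differed beyond sampling noise (chi-square per degree of freedom 53.2 over 18181 genes). The comparison was also run on simulated counts that held sampling noise only and changes larger than 2-fold. Such counts lack the spread between animals, so that run does not check the 2-fold calls. Alternatives were other scalings, quantifiers, thresholds and leaving out an animal. Every precursor was to be named, with the 4 highest genes of each other list where a result turns on them. The precursors and lists were chosen with earlier results of these data known, and receptor pairings after the tables were seen.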

Additional observations from a re-analysis of the deposited data

How the results depend on the processing

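The number of detected precursors was 8, and it was 14 when the limit was at least 10 expected counts in both animals, which added Pdyn, Cort, Ucn2, Edn1, Agt and Ren1. It lay between 6 and 10 under the other limits: kallisto gave 7 (without Nmb), 0.5 TPM gave 9 (with Cort), 5 TPM gave 6 (without Cartpt and Nmb) and TPM rescaled over nuclear protein-coding genes gave 10 (with Cort and Cck). Without replicate 1 it was 8 and without replicate 2 it was 10, with Cort and Ren1. The share of nuclear protein-coding genes, 56.3%, was taken only at 1 TPM in both animals. Changes in number under the other limits are thus not results about the precursors. The mean summed precursor level rose from 449 to 1206 TPM when TPM were rescaled over nuclear protein-coding genes, by construction. The number of precursors 2-fold apart was 0, and 1 (Ren1) with a minimum mean of 10 counts or with no minimum. The median log2 ratio of -0.23 was -0.46 with a pseudocount of 0.1 CPM and -0.11 by kallisto. The ratio of Npy was 0.503, and 0.528 when scaled to the ERCC spike-ins. The mean transcript shares of Cartpt-201 (60.8% and 38.9% by kallisto), Edn3-201 (73.2% and 62.0%), Penk-201 (85.8% and 93.6%) and Adm-201 (87.2% and 86.3%) differed between the quantifiers by more than the SD over the animals; the cause was not tested. The ratio of Nmb, whose interval included equality, was 0.791 and became 1.04 by kallisto; no other ratio changed direction under the scalings and quantifiers tried. No paired analysis was possible because the labels give 1 group. With 2 animals the spread is poorly known, and the 7 precursors whose intervals included equality had at most 69 counts in an animal.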

Other observations

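Among 28 further peptide precursor genes, 3 were detected, against 56.3% of nuclear protein-coding genes. They were Nucb2, the nesfatin precursor (9.99 and 11.2 TPM), Npff, of neuropeptide FF (2.48 and 3.43 TPM), and Insl3 (3.69 and 3.55 TPM). Insl3 encodes an insulin-like peptide best known from testis Leydig cells. Another 15 had a count of 0 in both animals. Agrp, of agouti-related peptide, stood at 4.01 TPM in replicate 1 and 0.36 TPM in replicate 2, from 63 and 6 counts. Ren1 and Agrp were thus both higher in replicate 1, a pattern picked out after the values were seen. Of the 18181 nuclear genes averaging 10 counts or more, 3.8% stood 2-fold or more lower in replicate 2.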
